A study of Mus musculus with 8 samples.

Results

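CAGE reads RNA from its capped 5′ end and thereby locates the sites at which transcription starts. Here it gave a catalogue of start site clusters for the facial skin of mice of the C57BL/6 strain on postnatal day 28. The genes described here are the Wnt ligands, the Frizzled receptors and the secreted antagonists of the Sfrp and Dkk families. They were taken by name, as every catalogue row whose gene symbol begins with Wnt, Fzd, Sfrp or Dkk followed by a digit. This gave 31 of the 16094 genes with a cluster and 116 of the 84475 distinct clusters. Per the labels, 4 libraries came from lesional skin of Nectin-cre(+);Ikk2FL/FL mice (Nestin-cre in the series text) and 4 came from non-lesional skin of mice labelled Control, whose alleles are not described further. Ikk2 is a kinase that activates NF-κB. Every lesional library is of the floxed genotype and every non-lesional one is a control, so lesion and genotype cannot be told apart. The labels do not say which cells the Cre reached, and no label says that animals were pooled. The names of the 8 columns of values match no label, so no column could be tied to a mouse or a group. For that reason the values were not used, no lesional to non-lesional difference was computed, and the levels and the depth of the libraries were not analysed here. The results describe which genes had start sites in the series as a whole, and how those start sites were arranged. A start site here means a cluster of the catalogue, and whether each cluster marks a true start of transcription was not tested.

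Wnt proteins are secreted, lipid-modified ligands that bind Frizzled receptors on the cell surface. With the co-receptors Lrp5 and Lrp6, this binding stabilises β-catenin, which then activates genes together with TCF and LEF factors, while other Wnt signals act through Ror receptors and planar cell polarity proteins. Sfrp proteins bind Wnts outside the cell, and Dkk proteins act mainly on Lrp5 and Lrp6. In skin the pathway is known for hair follicle formation and for the growth phase of the hair cycle.

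Promoter sequences are shown first for the genes on which the account of start sites turns: Wnt11, which had clusters far apart, the members with a TATA box, and 2 members without one that differ in CpG content. They come from RefSeq (assembly GRCm38.p6), which holds an entry of 300 bases for 20 of the 31 genes, 23 entries in all. The genes without an entry were Wnt5a, Wnt7b, Wnt8a, Wnt10a, Fzd2, Fzd3, Fzd6, Fzd8, Sfrp1, Sfrp4 and Dkk3. The entries were matched by gene symbol, and since the catalogue is on mm9, no cluster was placed on them. Each line gives the 100 bases before the annotated start, 5′ to 3′ on the plus strand. They lie at chr7:98835012-98835111 and chr7:98838745-98838844 for the upstream and downstream starts of Wnt11, chr3:132085192-132085291 for Dkk2, chr11:59306830-59306929 for Wnt9a, chr4:137277535-137277634 for Wnt4 and chr6:22288127-22288226 for Wnt16. Capitals mark the letters TATAA, and CTTTGA, the core that TCF and LEF factors bind, on either strand (TCAAAG where it is read on the opposite strand).
Wnt11 upstream start: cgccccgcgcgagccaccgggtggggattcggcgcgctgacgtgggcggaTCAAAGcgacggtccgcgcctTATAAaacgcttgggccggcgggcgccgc
Wnt11 downstream start: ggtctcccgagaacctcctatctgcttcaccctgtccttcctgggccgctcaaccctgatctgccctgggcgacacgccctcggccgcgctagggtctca
Dkk2: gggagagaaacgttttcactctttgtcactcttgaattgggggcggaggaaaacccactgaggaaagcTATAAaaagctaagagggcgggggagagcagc
Wnt9a: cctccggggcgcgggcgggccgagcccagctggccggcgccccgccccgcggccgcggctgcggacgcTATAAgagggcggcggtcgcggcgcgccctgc
Wnt4: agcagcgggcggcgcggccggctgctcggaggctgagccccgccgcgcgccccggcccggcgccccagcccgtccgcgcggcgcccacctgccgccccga
Wnt16: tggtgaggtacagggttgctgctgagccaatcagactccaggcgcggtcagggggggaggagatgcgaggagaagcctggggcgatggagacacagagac
TATAA, searched on the gene's strand with its first base 40 to 20 bases before the start, was found in 3 of the 23 member entries, those printed above, and in 3.52% of the 32851 entries of all genes. It began 32 bases before the start of Dkk2 and of Wnt9a, and 29 bases before the upstream start of Wnt11. CTTTGA, searched over the 300 bases of each entry on both strands, was in 4 member entries (Wnt11 upstream, Wnt5b, Fzd1 and Dkk1) and in 16.0% of all entries. CpG content ranged widely. Over the 300 bases, the median was 24 CG pairs in the member entries and 7 in all entries. The shares of entries with a motif, here and below, were not matched for CpG content. In the 100 bases printed, Wnt4 and Wnt9a had 20 CG pairs each, whereas Wnt16 had 4 and Dkk2 had 3.

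Since the deleted kinase acts on NF-κB, the κB consensus was also searched on both strands. It was found in 3 of the 23 member entries, those of Fzd5, Wnt10b and Wnt16, and in 5.8% of all entries. The matches before an annotated start, in capitals within 30 bases of the gene's own strand, lie on the minus strand at chr1:64737776-64737805 for Fzd5 and chr15:98778335-98778364 for Wnt10b.
Fzd5: gtcccggggcGGGGCCTCCCggcgggcatt
Wnt10b: ctacagcctcGGGAGACCCCggagcaggtg
Along the gene's strand, the matched bases began 45 bases before the start of Fzd5 and 204 bases before the start of Wnt10b. The match of Wnt10b was read on the opposite strand, as was that of Wnt16, which lay after the start. A match of letters in these windows does not show binding.

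Most of the ligands, every Frizzled and nearly all of the antagonists had a start site in this skin. Of the 37 protein-coding genes of these families in the RefSeq table, 31 (83.8%) had at least 1 cluster, beside 63.3% of all protein-coding genes. By family these were 14 of 19 Wnt genes, 10 of 10 Frizzled genes, 4 of 4 Sfrp genes and 3 of 4 Dkk genes. The genes without a cluster were Wnt1, Wnt2, Wnt2b, Wnt7a, Wnt8b and Dkk4. The absence of a cluster may reflect little RNA or the way clusters were called, and these cannot be told apart here. Where only clusters spanning at least 10 bp were counted, 28 of 37 genes (75.7%) remained, beside 59.9% of all protein-coding genes. The 3 that dropped out had 1 narrow cluster each, of 2 bp for Wnt8a and for Wnt9b, ligands best known from the embryo, and of 3 bp for Dkk1. In all, 3 of 31 members (9.68%) had no cluster of 10 bp or more, and 8.8% of all genes with a cluster did so.

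Clusters were spread unevenly over the members. A single cluster was given to 14 of the 31 genes, 8 had 2 to 4, and 9 had 5 or more. The share with 2 or more was 17 of 31 (54.8%), close to the 54.3% of all genes with a cluster. Genes with 5 or more made up 29.0% of the members and 18.3% of all genes, and those with 10 or more, Wnt5a and Fzd1, made up 6.45% of the members and 5.06% of all genes. The median was 2 clusters per gene, both for the members and for all genes. None of the 116 clusters was shared with another gene. Clusters that spanned under 10 bp made up 51.7% of member clusters and 48.3% of all clusters with a gene. Without Wnt5a, 45.3% of the remaining 86 were that narrow. Whether the number or the span of a gene's clusters follows its RNA level was not tested.

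**Figure D1:**
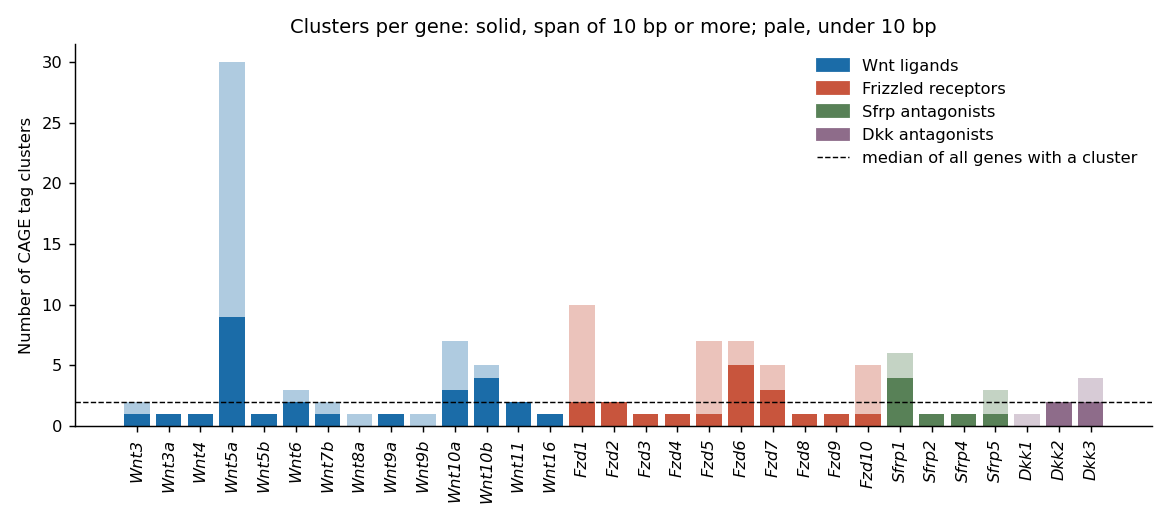
Number of CAGE tag clusters (vertical axis) for each of the 31 genes (horizontal axis), split into clusters with a span of 10 bp or more (solid) and under 10 bp (pale). Wnt5a has 30, Fzd1 has 10, and the dashed line is the median of 2 over all genes with a cluster.

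Wnt5a, a ligand of the dermis that signals largely through Ror2 and without β-catenin, held 30 of the 116 member clusters (25.9%). In the whole catalogue 10 genes, Wnt5a among them, had 30 or more. Its clusters lay on the plus strand of chromosome 14 (mm9) from 29317732 to 29325009, a stretch of 7277 bp of which they covered 519 bp. The clusters fell into 3 groups separated by at least 500 bp. The first held 17 clusters between 29317732 and 29319213, the second 3 between 29322958 and 29323696, and the third 10 between 29324401 and 29325009. Gaps of 3745 and 705 bp parted them, so a separation of 1000 bp left 2 groups.

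Each Wnt5a group had wider clusters among narrow ones. In the first, the widest spanned 106 bp, from 29318913 to 29319019, and others of 51 and 44 bp lay upstream and downstream of it. The second group had clusters of 47 and 33 bp and 1 of 8 bp. The third ended in the widest cluster of the gene, 126 bp from 29324883 to 29325009. All other 29 clusters of Wnt5a were upstream of that last one. Of the 30, 21 (70.0%) spanned under 10 bp and 9 spanned 10 bp or more, a number that 48 genes (0.327% of those with such a cluster) reached or exceeded. Joining clusters no more than 100 bp apart left 11 for Wnt5a, and 38 genes (0.236%) had as many or more. The minus strand held 3 clusters given to Gm2670 within 1000 bp upstream of the widest Wnt5a cluster, with spans of 3, 19 and 4 bp at gaps of 845, 432 and 127 bp. The first of these, in the order given, lay between the second group and the third, and the others lay within the third group, on the opposite strand.

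**Figure D2:**
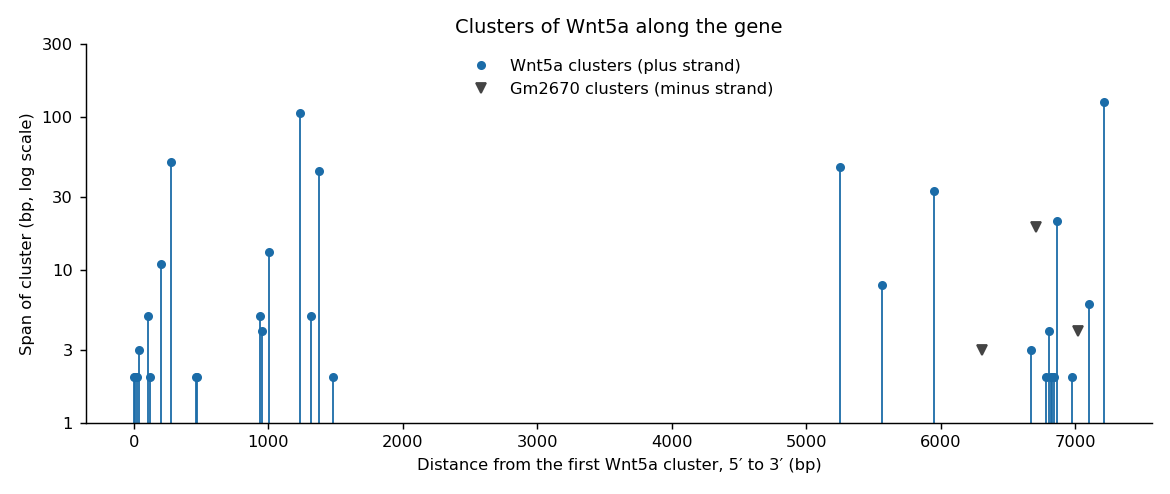
Span of each cluster in bp on a log scale (vertical axis) against its distance in bp from the first Wnt5a cluster (horizontal axis), for the 30 Wnt5a clusters (circles) and 3 Gm2670 clusters of the other strand (triangles). The cluster of 106 bp stands before the gap of 3745 bp that divides the gene's clusters and the cluster of 126 bp stands at their 3′ end.

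Among the other ligands, Wnt10a and Wnt10b had the most clusters. Wnt10a, an epithelial ligand whose loss disturbs teeth, hair and other ectodermal organs, had 7 clusters on the plus strand of chromosome 1, of which the widest spanned 129 bp (74838271 to 74838400) and the next 106 bp, 158 bp downstream. A cluster of 121 bp with no gene symbol lay on the same strand 1594 bp downstream of the widest, from 74839994 to 74840115. Of the clusters named Wnt10a, only the widest was wider than it. Wnt10b, a ligand of the early hair follicle, is on the minus strand of chromosome 15 and had 5 clusters. Its widest, 81 bp from 98607705 to 98607786, was preceded upstream by clusters of 28, 60 and 47 bp at gaps of 640, 739 and 1177 bp. Its start sites thus ran over 1576 bp, with no neighbouring clusters 1000 bp apart.

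Wnt11, a ligand that also acts mainly without β-catenin, was the other ligand with clusters far apart. On the plus strand of chromosome 7 its wider cluster spanned 65 bp (105983574 to 105983639), and 3867 bp farther downstream was another of 10 bp (105987506 to 105987516). The 2 RefSeq starts printed above are 3733 bp apart in GRCm38.p6. The gap of 3867 bp runs from edge to edge, and the clusters began 3932 bp apart. As the builds differ, these distances are given side by side and the clusters were not assigned to the starts. Counting clusters of at least 10 bp, 2 of 28 members (7.14%), Wnt5a and Wnt11, had neighbours at least 1000 bp apart, and 9.65% of all genes did. With clusters of any span it was the same number, 2 of 31 (6.45%), against 15.5% of all genes. A separation of 500 bp added Wnt10b and Dkk3.

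Other ligands had compact start sites. Wnt3, a ligand of the hair matrix and epidermis, had the widest cluster of any Wnt gene, 205 bp on chromosome 11 from 103635351 to 103635556, and a 3 bp cluster 13 bp downstream. Wnt7b, a ligand of the growing follicle, had 1 of 187 bp (chromosome 15, minus strand, 85412188 to 85412375) and 1 of 4 bp. Wnt6 had 3 clusters, of 3, 55 and 155 bp, in 381 bp. Among ligands with 1 cluster, the spans were 153 bp for Wnt3a, 93 bp for Wnt9a, 90 bp for Wnt4, 82 bp for Wnt5b and 31 bp for Wnt16. For Wnt5b the RefSeq table gives 3 starts, 77136 and 17825 bases apart, and the catalogue held 1 cluster of the gene, on chromosome 6 at 119494298 to 119494380.

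Wnt genes lie in ancient neighbour pairs, and 3 of these had both genes listed. Wnt6 and Wnt10a lie on the same strand of chromosome 1, and their nearest clusters were 19637 bp apart. Wnt9b and Wnt3 point away from each other on chromosome 11 with 24212 bp between their clusters. Wnt3a and Wnt9a do so too, with 15983 bp. No cluster of any kind lay within these 3 intervals. The widest cluster spanned 205 bp for Wnt3 and 2 bp for Wnt9b. It spanned 155 bp for Wnt6 and 129 bp for Wnt10a, and 153 bp for Wnt3a and 93 bp for Wnt9a. Whether the members of a pair differed more than other neighbouring genes was not tested.

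Frizzled receptors, with the exception of Fzd9, had a wide cluster. The widest spanned at least 100 bp in 9 of 10 Frizzled genes, 6 of 14 Wnt genes, 2 of 4 Sfrp genes and 2 of 3 Dkk genes, in all 19 of 31 (61.3%), and in 56.0% of all genes with a cluster. Fzd1 had the widest of all members, 222 bp on the minus strand of chromosome 5 (4757864 to 4758086). Fzd5 followed with 213 bp (chromosome 1, minus strand, 64784140 to 64784353), Fzd2 with 206 bp and Fzd7 with 201 bp (chromosome 1, plus strand, 59538908 to 59539109). Fzd9 had 1 cluster of 59 bp on chromosome 5 (135727083 to 135727142). The median of the widest cluster was 165.5 bp for Frizzled genes, 91.5 bp for Wnt genes, 126 bp for Sfrp genes and 133 bp for Dkk genes. Over all 31 it was 129 bp, with quartiles of 76 and 176 bp, and over all genes with a cluster it was 110 bp, with quartiles of 67 and 159 bp.

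**Figure D3:**
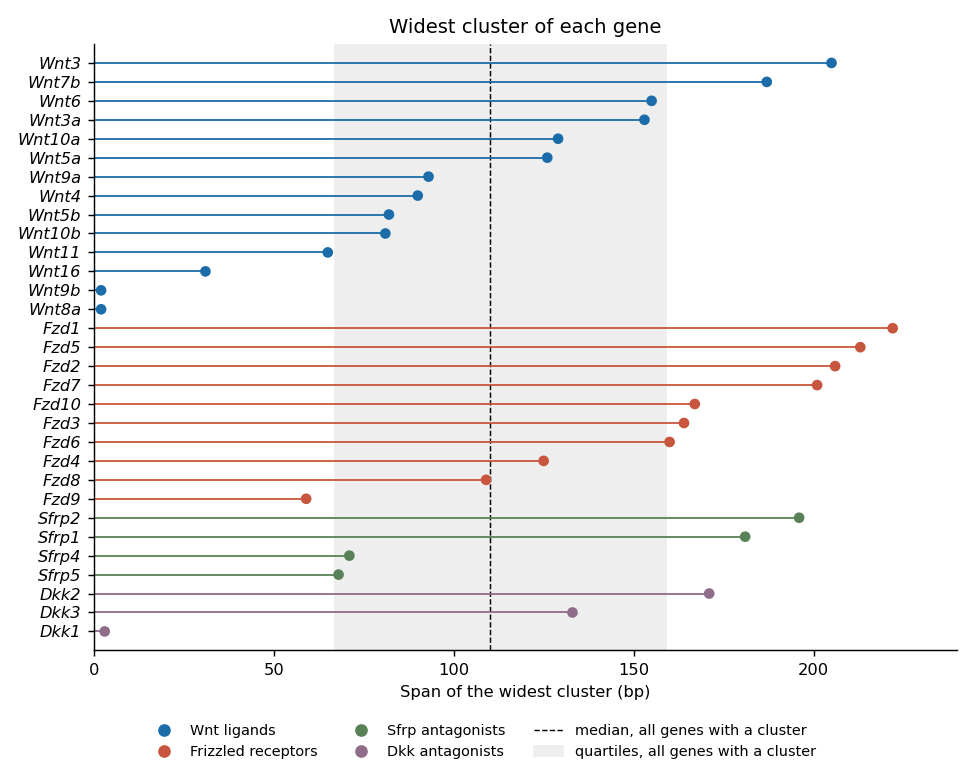
Span in bp of the widest cluster (horizontal axis) of each gene (vertical axis), grouped by family; the dashed line and grey band are the median of 110 bp and the quartiles of 67 and 159 bp over all genes with a cluster. Fzd1 is highest at 222 bp, and Wnt8a, Wnt9b and Dkk1 lie at 2 to 3 bp.

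Frizzled genes differed more in the number of clusters than in the width of the widest one. Fzd1 had 10, of which 8 spanned under 10 bp. Fzd5 and Fzd6 had 7 each, but 6 of those of Fzd5 were under 10 bp, while 5 of those of Fzd6 spanned 10 bp or more, at 27, 78, 15, 160 and 39 bp. The 160 bp cluster ran from 38837769 to 38837929 (chromosome 15, plus strand). Fzd6, which acts in planar cell polarity and orients hair follicles, thus had the most clusters of that width among the receptors. Fzd7 and Fzd10 had 5 each and Fzd2 had 2. The widest of Fzd10 ran from 129106672 to 129106839 on the plus strand of chromosome 5. Fzd3, also a polarity receptor, had 1 of 164 bp. Fzd4, a receptor of blood vessels, had 1 of 125 bp, and Fzd8 had 1 of 109 bp.

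Several Frizzled genes were also followed by clusters that carried no gene symbol. Within 5000 bp downstream of the widest cluster, on the same strand, 7 of 31 members (22.6%) had at least 1 such cluster, and 15.8% of all genes did. These were Fzd1 with 7 clusters, Fzd10 with 4, Fzd7 with 3, and Fzd2, Fzd6, Wnt10a and Sfrp4 with 1 each. Of the 18 clusters, 15 spanned under 10 bp. Those of Fzd1 lay 1081 to 3626 bp downstream, and the gene is 4378 bases long in RefSeq. The farthest of Fzd7, at 4327 bp, compares with a gene length of 4809 bases. The farthest of Fzd10, at 4686 bp, lay beyond the gene's 2988 bases. Whether these clusters mark promoters of their own was not tested.

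Opposite-strand clusters within 1000 bp of the widest cluster were found for 7 of 31 members (22.6%), and for 32.2% of all genes. In 4 members (12.9%) the neighbour carried a gene symbol, against 17.7% of all genes. Fzd4 faced Tmem135, whose 110 bp cluster lay 75 bp upstream on the minus strand (96552653 to 96552763, chromosome 7). Fzd10 had a cluster of 176 bp given to 5930412G12Rik (an older symbol of Fzd10os) 52 bp upstream, wider than its own cluster of 167 bp, and a further one of 46 bp 511 bp downstream. Fzd6 had a 13 bp cluster of Gm17265 just 10 bp upstream, and Wnt5a had those of Gm2670 given above. For Fzd1, Fzd5 and Wnt10a, the opposite-strand clusters carried no symbol and spanned 2 to 38 bp.

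**Figure D4:**
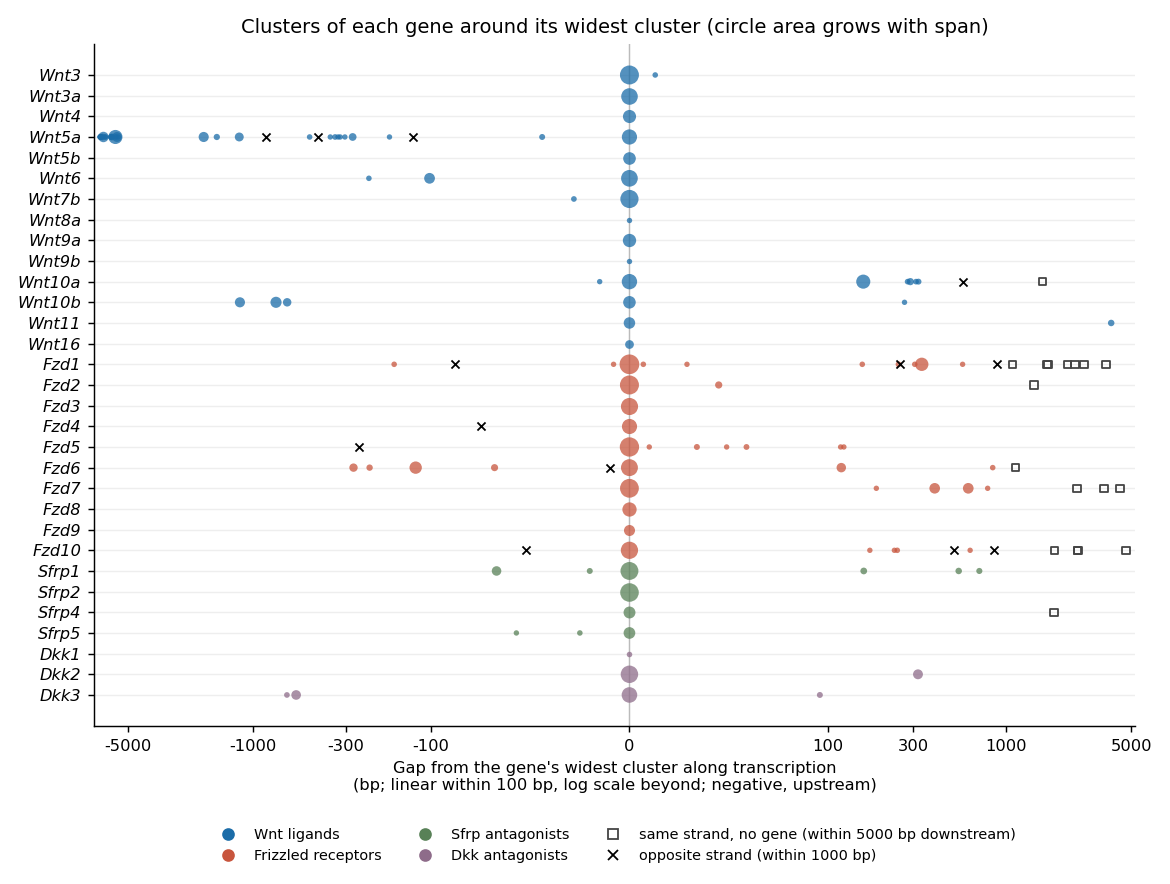
Gap in bp of every cluster from the widest cluster of its gene along the direction of transcription (horizontal axis, linear within 100 bp and log beyond) for the 31 genes (vertical axis); squares are same-strand clusters without a gene and crosses are opposite-strand clusters. Fzd1 is followed by 7 squares, and all 29 other clusters of Wnt5a lie upstream.

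Sfrp1 had 6 clusters in 1001 bp on the plus strand of chromosome 8, the widest of 181 bp (24521855 to 24522036), with 40 and 6 bp clusters upstream and 12, 10 and 7 bp clusters downstream. Sfrp2, a marker of dermal fibroblasts, had 1 cluster of 196 bp on chromosome 3 (83570186 to 83570382), the widest of its family. Sfrp4 had 1 of 71 bp. Sfrp5 had 3, of 68, 3 and 2 bp. Dkk2, which limits hair formation in mouse skin, had 2 clusters of 171 and 44 bp on chromosome 3 (131748245 to 131748416, and 131748736 to 131748780), 320 bp apart. Its promoter has the TATAA printed above, and its widest cluster exceeded the median of 110 bp over all genes. The widest clusters of the other members with TATAA, Wnt9a at 93 bp and Wnt11 at 65 bp, were below that median. Dkk3, a divergent member of its family, had a cluster of 133 bp on the minus strand of chromosome 7 (119301862 to 119301995), a second of 41 bp 570 bp upstream of it, and 2 narrow ones.

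Neighbouring clusters of a member were close, with a median gap of 53 bp over 85 gaps, beside 65 bp over all genes. Gaps of at most 100 bp made up 62.4% for members and 57.6% for all genes. Which side of the widest cluster the others took depended on Wnt5a. With it, 48 of 85 lay upstream (56.5%); without it, 19 of 56 did (33.9%), and over all genes 39.7% did. Of the 17 members with 2 or more clusters, 7 had none upstream of the widest, 4 had none downstream, and 6 had clusters on both sides.

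The span of the widest cluster was also set beside the CpG content of the promoter. Over the 18 members with exactly 1 RefSeq entry, Spearman's rho between the number of CG pairs in the 300 bases and the widest span was 0.07, and over 8329 genes with 1 entry it was 0.27. These correlations are across genes, which are not independent replicates, and share the same libraries. Where the widest cluster spanned 100 bp or more, the median was 27.5 CG pairs over 10 members and 22 over 5010 genes. Where it spanned less, the median was 23.5 over 8 members and 17 over 3319 genes. The 23 member entries ranged from 4 to 58 CG pairs. Fzd9, with 53 CG pairs, had a widest cluster of 59 bp, whereas Dkk2, with 11, had one of 171 bp. Other members went the other way: Fzd10, with 45 CG pairs, had one of 167 bp, and Wnt16, with 10, had one of 31 bp.

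Of 56 further genes of the pathway, listed by role from prior knowledge, 54 had a cluster, beside 63.3% of all protein-coding genes, and 51 had a cluster of at least 10 bp, beside 59.9%. The genes without any were Sost and Celsr3. The list was picked by hand, so its share is a description. All 3 genes of Wnt protein modification or secretion, Porcn, Wls and Notum, were listed. Wls, the carrier of Wnt proteins, had 6 clusters. All 6 co-receptors and other receptors were listed, among them Lrp6 with 3, Ror1 with 4 and Ror2 with 3 clusters. So were all 9 genes of the R-spondin system, which regulates the number of Frizzled receptors on the cell surface, Lgr6 having 6 clusters and Lgr5 having 3. Of 8 other extracellular antagonists 7 were listed. Wif1 had 7 clusters, whereas Frzb, the Sfrp relative whose symbol the selection by name misses, had 1 of 5 bp. All 16 transduction genes were listed with a median of 5 clusters, among them Ctnnb1, the gene of β-catenin, with 11, Lef1 with 14, Tcf7l2 with 15 and Csnk1a1 with 16. Bcl9l, a β-catenin cofactor, had 8 clusters, none of which reached 10 bp. Planar polarity genes stood at 6 of 7 and targets at 8 of 8, with 18 clusters for Axin2, the feedback inhibitor used as a readout of the pathway. Another target, Sp5, had 1 cluster of 3 bp.

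Of 37 cell type markers, 32 had a cluster, beside 63.3% of all protein-coding genes. The markers were picked by hand, so their share is a description. All 4 keratinocyte, 4 hair follicle and 4 fibroblast markers had a cluster, and so did all 4 of skeletal muscle, 3 of endothelium, 3 of melanocytes, 3 of Schwann cells and 3 of macrophages. Of 3 dermal papilla markers, 2 were listed, and Sox2 was not. T cells stood at 2 of 3, where the third, Trac, matched no protein-coding gene of the RefSeq table and its count is not comparable. B cells stood at 0 of 3. In bulk skin, the cell type from which a member's start site came cannot be told from this catalogue.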

How the data were processed

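CAGE libraries were made from total RNA of 8 facial skin samples, 4 lesional and 4 non-lesional. The submitters' processing notes name BWA, HISAT2 and mm9. How the authors joined tags into clusters and tied clusters to genes is not given in the sources used here, nor is the base from which starts count, so coordinates are printed as in the deposited table. The deposited table also holds 8 columns of values, which were not used because their names match no label. All group comparisons that had been planned were therefore not run, and library depth was not analysed here.

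Rows with the same position and gene were counted once. Span means end minus start, and a gap is the next start minus the previous end. Symbols were matched to the RefSeq table of GRCm38.p6, current symbols first and then older ones of 1 gene. Motif positions count back from the annotated start. The genes, lists, windows and limits were chosen with earlier results of these data known, and the sequences and neighbour windows after the catalogue was seen. No test was made. All genes are accounted for, and positions of at least the widest cluster are given for Wnt5a, for genes with 5 or more clusters or clusters 1000 bp apart, and for the gene with the widest cluster of each family. Analysis used Python 3.11.15, pandas 2.3.3, numpy 2.4.6 and scipy 1.17.1. The geometry functions were tested on simulated data.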

Additional observations from a re-analysis of the deposited data

How the results depend on the processing

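The number of members with a cluster was 31, and 28 with clusters of at least 10 bp or 31 with current symbols alone. The number of member clusters depended more on how clusters were counted: it was 116 as deposited, 56 with a span of at least 10 bp, 63 with clusters no more than 100 bp apart joined, and 86 without Wnt5a, an alternative chosen after seeing the data. The median per gene was 2, and 1 under each of the first 2 of these alternatives (2 without Wnt5a). Over all genes the joined median was also 1. Members with clusters far apart numbered 2 at 1000 bp, 4 at 500 bp and 2 with clusters of any span. The other pathway genes with a cluster numbered 54, and 51 with clusters of at least 10 bp. No paired analysis was possible because no column of values has a name that matches a sample's label. For that reason the planned normalizations, pseudocounts, filters on low values and fits without each replicate were not run. What the depth of the libraries limits was not analysed here.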
